A study of Mus musculus with 2 samples.

Results

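The cytochrome P450 enzymes were followed in teratomas, which are tumours that transplanted pluripotent cells form and that mix many differentiated tissues. They were taken as those genes on the array whose current symbol, carried alone by at least 1 probe set, is Cyp followed by a family number, a subfamily letter and a gene number. This gave 61 of the 12393 genes on the array, from 14 families and with 74 probe sets. The first array held RNA of tumours from C57BL/6 (B6) embryonic stem (ES) cells (the ES pool), and the second RNA of tumours from EiPS cells (the EiPS pool), which the labels give as 1E12 iPS. From general knowledge of the study and not from the labels, EiPS cells are taken to be induced pluripotent stem cells of the same strain made with episomal vectors. Both kinds of cell had been placed under the skin of male B6 mice and the tumours removed at week 6, and the submitters call the EiPS tumours regressing. Each array held pooled RNA of 2 tumours, so the values of single tumours are not known, and the EiPS pool stands for 1 cell line. The pools held the mixed tissues of a teratoma: 10 of 11 hepatocyte markers, 6 of 6 neuron markers and 4 of 4 skeletal muscle markers passed the signal floor described below on at least 1 array.

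P450 enzymes are haem proteins that insert oxygen into small hydrophobic molecules, using electrons passed on by a reductase or, in mitochondria, by a ferredoxin. Families 1 to 3 mostly act on drugs and other foreign compounds, and family 4 on fatty acids and eicosanoids. The remaining families make or break down steroid hormones, sterols, bile acids, retinoic acid and the vitamin D hormone. Most members of families 1 to 4 are best known from the liver, with others in intestine, lung, kidney or skin.

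With 1 array per group there was no replicate, and no difference given here was tested. Values are MAS5 signals, intensities on a linear scale that the authors had scaled to the same 2% trimmed mean on both arrays (500.2). A signal under 25.6, the 90th percentile of 67 probe sets for olfactory, vomeronasal and taste receptors, was treated as too low to measure. Where 1 array was under this floor, the floor stood in for its signal, and the fold is then a bound, written "at least". The only gauge of measurement noise was the spread of log2 differences between probe sets of 1 gene. Its SD was 0.51 over 284 genes with mean signals under 100 and 0.40 over 2744 genes between 100 and 1000, which leaves out variation between tumours and between arrays. In tumour pools, fewer cells of a type and less RNA per cell cannot be told apart.

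The promoters of the members that were higher by 2-fold or more in the EiPS pool are shown for Cyp1b1 and for the subfamilies 3a and 4f, each of which held a pair of such members. Each sequence is the RefSeq window of 300 bases in build GRCm38.p6, from 250 before to 50 after the gene's start, read 5′ to 3′ on the gene's strand. Capitals mark every match on either strand to 4 short motifs. GCGTG is the core bound by the aryl hydrocarbon receptor, and AGGTCA a half-site of nuclear receptors. TATAAA is a core promoter element, and ATTGG a site of the factor NF-Y. No match overlapped another. The windows lie at chr17:79715012-79715311 (Cyp1b1, minus strand), chr5:145879805-145880104 (Cyp3a11, minus strand), chr5:137921570-137921869 (Cyp3a13, minus strand), chr17:32947312-32947611 (Cyp4f13, minus strand) and chr17:32536307-32536606 (Cyp4f16, plus strand).
Cyp1b1: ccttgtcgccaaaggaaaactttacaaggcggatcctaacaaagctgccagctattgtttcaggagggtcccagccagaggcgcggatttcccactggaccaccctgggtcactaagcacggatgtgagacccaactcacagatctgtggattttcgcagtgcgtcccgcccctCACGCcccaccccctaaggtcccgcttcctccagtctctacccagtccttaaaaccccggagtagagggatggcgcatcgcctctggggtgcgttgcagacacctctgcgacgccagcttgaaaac
Cyp3a11: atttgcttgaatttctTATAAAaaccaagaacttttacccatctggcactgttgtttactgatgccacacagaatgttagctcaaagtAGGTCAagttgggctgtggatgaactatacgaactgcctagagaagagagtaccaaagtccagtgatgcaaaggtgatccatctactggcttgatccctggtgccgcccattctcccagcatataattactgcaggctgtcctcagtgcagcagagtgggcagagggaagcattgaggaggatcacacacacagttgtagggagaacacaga
Cyp3a13: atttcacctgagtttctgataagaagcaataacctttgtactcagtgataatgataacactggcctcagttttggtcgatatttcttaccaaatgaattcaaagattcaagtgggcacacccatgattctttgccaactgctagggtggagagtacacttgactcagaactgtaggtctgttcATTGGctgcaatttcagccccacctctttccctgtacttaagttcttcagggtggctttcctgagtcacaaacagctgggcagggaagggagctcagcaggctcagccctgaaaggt
Cyp4f13: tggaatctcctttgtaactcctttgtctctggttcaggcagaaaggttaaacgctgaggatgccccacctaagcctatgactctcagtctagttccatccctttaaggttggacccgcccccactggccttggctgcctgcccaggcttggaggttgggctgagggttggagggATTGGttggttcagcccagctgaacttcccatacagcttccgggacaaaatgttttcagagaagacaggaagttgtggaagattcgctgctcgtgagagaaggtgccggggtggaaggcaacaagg
Cyp4f16: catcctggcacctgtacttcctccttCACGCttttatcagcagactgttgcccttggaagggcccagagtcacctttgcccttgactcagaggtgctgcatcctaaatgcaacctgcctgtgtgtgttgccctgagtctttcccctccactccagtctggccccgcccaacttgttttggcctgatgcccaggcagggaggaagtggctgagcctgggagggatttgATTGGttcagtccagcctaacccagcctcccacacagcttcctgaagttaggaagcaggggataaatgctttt

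The Cyp1b1 window held 1 GCGTG match, on the reverse strand at -76, and Cyp4f16 held another at -224. Of all 32851 promoter windows, 32.4% held this core, and of the 52 windows of the 45 P450 members in the table, 21.2% did. The AGGTCA half-site was in the Cyp3a11 window at -162 and in no other window shown, against 16.3% of all windows and 25% of the members' windows. The ATTGG site was in the same orientation in Cyp3a13 (-67), Cyp4f13 (-76) and Cyp4f16 (-23), and in 37.4% of all windows and 51.9% of the members'. TATAAA was in 36.5% of the members' windows and 13.6% of all windows. Of the windows shown only Cyp3a11 held it, at -234. The Cyp3a11 window was identical in 75.2% of aligned columns to that of Cyp3a16 and in 71.8% to that of Cyp3a44, and these last were 93.4% identical to each other. Its identity to the Cyp3a13 window was 57.4%. These matches describe the letters of the windows. Binding was not measured.

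Of the 61 members, 35 were above the floor on at least 1 array and could be compared. The other 26, or 42.6% of the members, were under it on both, against 11.5% of all genes. The 35 comprised 25 above the floor on both arrays, 6 in the EiPS pool only and 4 in the ES pool only. A gene that passes through 1 array has its direction fixed by that, so the counts below describe the measured members and not the family as a whole.

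**Figure D1:**
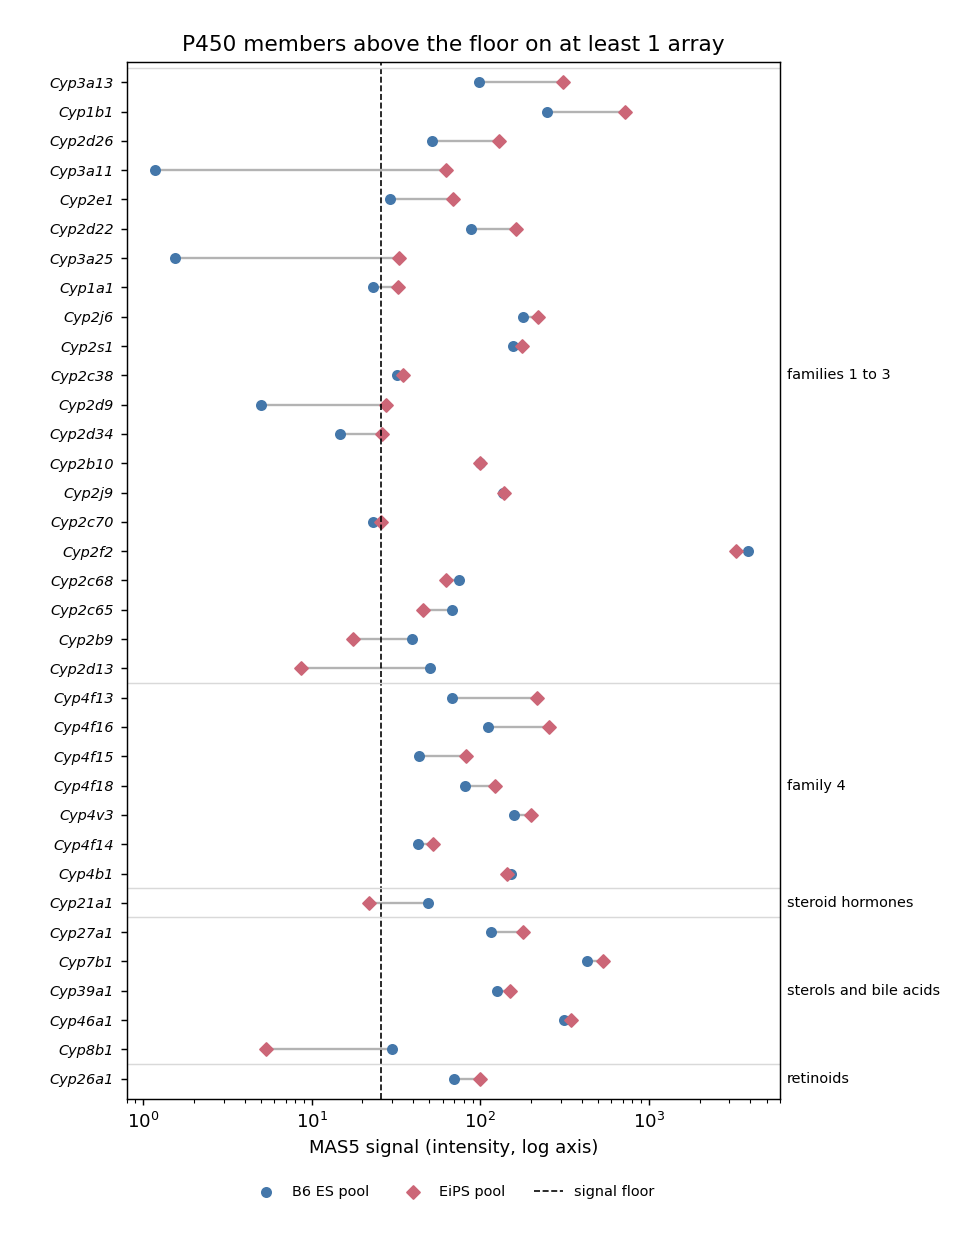
MAS5 signals (log axis) of the 35 P450 members above the floor on at least 1 array, with circles for the ES pool, diamonds for the EiPS pool and a dashed line at the floor of 25.6. Cyp2f2 sits at 3866 and 3306, Cyp3a11 crosses the floor from 1.17 to 62.6, and Cyp2d13 crosses it the other way, from 50.7 to 8.70.

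A group of 7 members were higher by 2-fold or more in the EiPS pool, namely Cyp4f13, Cyp3a13, Cyp1b1, Cyp2d26, Cyp3a11, Cyp2e1 and Cyp4f16, and none was lower by 2-fold or more. That is 7 of 35 (20%), where 5.82% of the 10973 genes compared were higher by 2-fold or more and 3.04% lower by 2-fold or more. Among the 25 members above the floor on both arrays, which leaves out Cyp3a11, 6 (24%) were higher by as much and none lower. Of all genes above it on both arrays 4.90% were higher and 2.95% lower. The count of 0 lower members rests on the floor, since Cyp2d13 was at least 1.98-fold lower and would pass 2-fold with a lower floor. Where the 75th percentile of those receptors served as the floor, Cyp2d13 and Cyp21a1 were past 2-fold lower. The split of higher against lower was 7 to 0 as deposited, 6 to 1 after quantile normalization and 7 to 2 with equal array medians. Of all genes, 4.45% were higher and 3.96% lower after quantile normalization, and 4.61% and 4.17% with equal medians.

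The median log2 difference, EiPS minus B6 ES, was 0.30 over the 35 members and 0.07 over all compared genes. Among genes with mean signals under 100 the median was 0.12 over 20 members, below the 0.22 over all such genes. Among genes at 100 or more it was 0.31 over 15 members and 0.04 over all such genes. So only the brighter members had a median above that of genes of like signal. Of the 35, 27 differed towards the EiPS pool and 8 towards the ES pool, or 77.1% positive against 56.2% of all genes. Among those above the floor on both arrays, 84% of members and 55.3% of all genes were positive. After quantile normalization 21 of 33 were positive, and with equal medians 22 of 34. The positive share of all genes was not computed under these scalings. Scaling to equal medians moved the median of all genes from 0.07 to -0.06, and quantile normalization moved it to 0.001. The differences of Cyp2b10, Cyp2c38 and Cyp2j9, all close to 0, changed sign under both scalings.

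The members past 2-fold did not all lie near the floor. With compared genes split at a mean signal of 100, 4 of the 15 brighter members (Cyp1b1, Cyp3a13, Cyp4f13 and Cyp4f16) were higher by 2-fold or more, where 3.91% of brighter genes were. None was lower by as much, where 2.95% of brighter genes were. Among dimmer genes the background was larger, at 13%, and 3 of 20 members (15%), Cyp2d26, Cyp2e1 and Cyp3a11, passed, a share near it. No dimmer member was lower by 2-fold, where 3.4% of dimmer genes were. At a threshold of 1.5-fold, 11 of the 35 members were higher and 3 lower, where 15.3% and 9.32% of all compared genes were. The 3 lower were Cyp2d13, Cyp21a1 and Cyp2b9, each of them a bound.

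**Figure D2:**
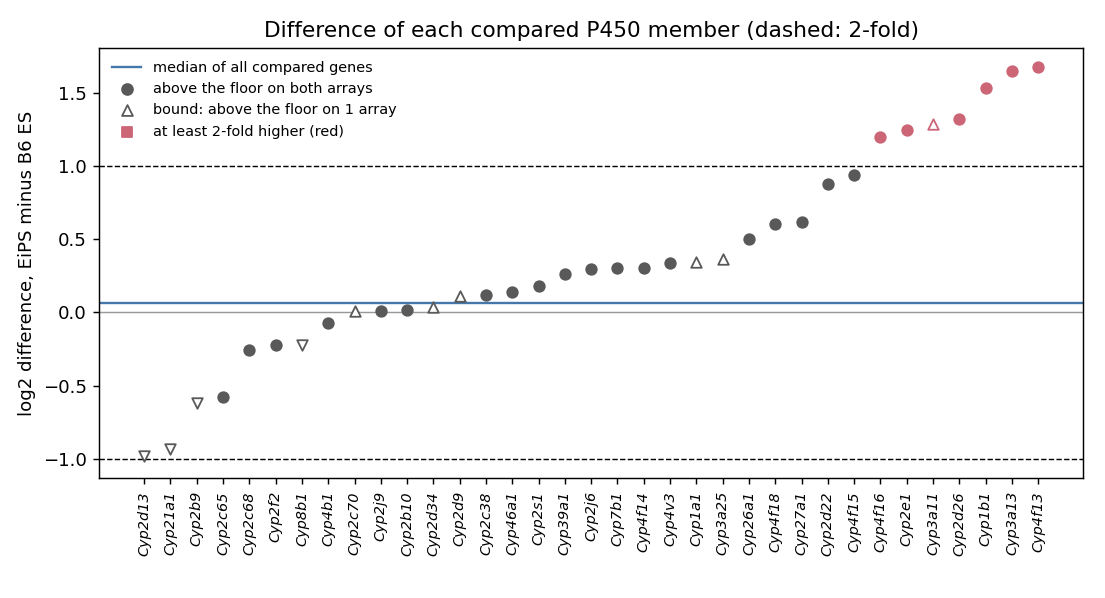
Log2 difference (EiPS minus B6 ES) of each of the 35 compared P450 members in ascending order, with open triangles for bounds, red for members higher by 2-fold or more, dashed lines at 2-fold and a blue line at the median of all compared genes. The values run from -0.98 (Cyp2d13, a bound) to 1.67 (Cyp4f13).

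Family 1 oxidises polycyclic aromatic compounds and oestrogens and is induced through the aryl hydrocarbon receptor. Cyp1b1, its member of stromal and other non-hepatic tissues, had signals of 249.6 in the ES pool and 722 in the EiPS pool. This is 2.89-fold higher in the EiPS pool, and a second probe set went the same way (55.6 and 124). The third was under the floor on both arrays, with 3.02 and 2.79. Averaged over all 3 probe sets, the log2 difference of Cyp1b1 was 0.86 and no longer past 2-fold. Cyp1a1, the classic induced gene of the family, was under the floor in the ES pool at 23.1 and just over it in the EiPS pool at 32.5 (at least 1.27-fold higher). Cyp1a2, a liver enzyme, was under the floor on both arrays, with 19.9 and 6.75. The pair of neighbouring Cyp1a genes was at the limit of measurement, so whether they differed by 2-fold cannot be told. A difference between Cyp1b1 and Cyp1a1 was not tested.

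In family 3, whose enzymes oxidise many drugs and steroids in liver and gut, 3 members were measured, 2 of which passed the floor with EiPS tumours alone. Cyp3a13, a form of intestine and liver, had signals of 98.9 and 311 (3.14-fold higher). It was past 2-fold under each of the 9 alternative settings run. Several of these could not change it: it has 1 probe set, not marked as shared, with both signals above the percentile floors. Cyp3a11, the main adult liver form and a gene the study's paper reported for regressing EiPS tumours, had 1.17 and 62.6 (at least 2.44-fold higher). Its selection by the study on tumours of this kind means that it is not independent evidence of a direction. Cyp3a25, the immediate neighbour of Cyp3a11 in the gene order, had 1.54 and 33.0 (at least 1.29-fold higher). Both passed the floor through the EiPS pool alone, which fixes their direction. Cyp3a16 (0.867 and 4.68) and Cyp3a44 (10.8 and 0.206), which belong to the same cluster, were under the floor on both arrays. Cyp3a13 lies apart from the cluster, with 210 annotated genes between it and Cyp3a16.

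Family 2 is the largest, with 31 members, of which 16 were measured and 2 (12.5%) were higher by 2-fold or more. Over all compared genes 5.82% were, and 13% of those with mean signals under 100, where both of the 2 lie. Cyp2e1, which oxidises ethanol, had signals of 29.2 in the ES pool and 69.3 in the EiPS pool (2.37-fold higher), the first just over the floor. Cyp2d26 had 51.6 and 129 (2.50-fold higher). With a floor of 100 Cyp2d26 was at least 0.37 higher on the log2 scale, and Cyp2e1 could not be compared.

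The 2d subfamily is the group of debrisoquine-type hydroxylases. Cyp2d22 had 88.3 and 162 (1.84-fold higher), and its second probe set 78.2 and 117. Cyp2d9 was at 4.99 and 27.7, and Cyp2d34 at 14.6 and 26.3, both scarcely over the floor in the EiPS pool. Cyp2d13, the next annotated gene to Cyp2d34, was at 50.7 in the ES pool but at 8.70 in the EiPS pool, a bound of 1.98-fold lower. Cyp2d9, Cyp2d34 and Cyp2d13 each passed the floor on 1 array alone, which fixes their direction. The second probe set of Cyp2d13 was under the floor on both arrays, with 0.602 and 1.79. Cyp2d10 (0.998 and 4.97) and Cyp2d12 (1.05 and 2.44) were under it too.

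Cyp2f2, the club cell enzyme of the airway that activates naphthalene, was far above the floor in both pools. Its signals were 3866 in the ES pool and 3306 in the EiPS pool, a log2 difference of -0.23, within 2-fold. Of 5 genes listed for club cells, 1 was lower by 2-fold or more and none higher, with a summed signal of 4698 and 3258. Over all compared genes 3.04% were lower and 5.82% higher by as much. The list includes Foxj1, a gene of ciliated airway cells. The airway secretoglobin Scgb3a2 was the lower gene, with 1524 and 278, and gave most of the difference between the sums. The other 4 were within 2-fold, as Cyp2f2 was. They had 423 and 246 (Scgb1a1), 745 and 783 (Scgb3a1), 1705 and 1640 (Aldh1a1), and 302 and 310 (Foxj1). A difference between Scgb3a2 and Cyp2f2 was not tested.

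The 2c subfamily, a cluster of arachidonic acid epoxygenases and drug hydroxylases, had 11 members, 4 of them measured and none past 2-fold. Cyp2c65, an intestinal form, had 67.9 and 45.5 (1.49-fold lower). Cyp2c68 had 75.3 and 62.8 (1.20-fold lower), Cyp2c38 had 32.2 and 34.9, and Cyp2c70 had 23.2 and 25.8. Cyp2c23, Cyp2c29, Cyp2c37, Cyp2c39, Cyp2c50, Cyp2c54 and Cyp2c55 were under the floor on both arrays, among them adult liver forms. The members of this cluster are close copies, so probes for 1 may detect another, and the probe set of Cyp2c65 is one the array's naming marks as shared by several transcripts.

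In the 2b subfamily, Cyp2b10, the target of the constitutive androstane receptor, had 99.0 and 100.1 by its brightest probe set. Its other probe sets, at 89.1 and 48.8 and at 78.8 and 48.2, were lower in the EiPS pool, with log2 differences of -0.87 and -0.71. Cyp2b9 had 39.3 and 17.5 (at least 1.53-fold lower), while Cyp2b13 and Cyp2b19, the latter a keratinocyte enzyme, were under the floor on both arrays. Cyp2j6 (179 and 220.0) and Cyp2j9 (137 and 138), which form epoxides of arachidonic acid, and Cyp2s1 (155 and 176), an enzyme of surface epithelia, differed by at most 1.23-fold. Cyp2j5, Cyp2j13, Cyp2a12 and Cyp2g1, an olfactory mucosa enzyme, were under the floor on both arrays.

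Marker genes of tissues that use families 1 to 3 differed alongside. Of 10 measured hepatocyte markers 6 were higher by 2-fold or more in the EiPS pool and none lower. Over all compared genes 5.82% were higher and 3.04% lower by as much. Of the 10, 4 (Ahsg, Fga, Fgb and Serpina1b) passed the floor through the EiPS pool alone, which fixes their direction. The summed signal was 11027 in the ES pool and 19024 in the EiPS pool. Most of it in both pools was Ttr (8629 and 13102, 1.52-fold higher), also listed for yolk sac endoderm. Tat, a marker of mature liver, was under the floor on both arrays. Of 8 enterocyte markers 4 were higher by 2-fold or more and 1 lower, with sums of 3757 and 3460, and Cdx1 was under the floor on both. The 4 fell to 3 of 9 after quantile normalization and to 2 of 9 with equal medians, where the list's median difference of 0.75 was 0.27 and 0.37. The hepatocyte count was 6 of 10 under both scalings. The part of these tissues in the P450 differences was not tested.

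Family 4 hydroxylates fatty acids and leukotrienes. Of its 7 measured genes 2 (28.6%) were higher by 2-fold or more in the EiPS pool, where 5.82% of all compared genes were. Both are among the 5 measured genes of the 4f subfamily. Cyp4f13 had signals of 68.4 in the ES pool and 218 in the EiPS pool (3.19-fold higher). Cyp4f16 had 111 and 255 (2.30-fold higher), and a second probe set 55.1 and 82.6. A probe set shared by Cyp4f16 and its neighbour Cyp4f37, not used in the counts, had 104 and 209.9, or 2.01-fold. Cyp4f15 had 43.1 and 82.5 (1.92-fold higher), just inside 2-fold. Cyp4f14, a leukotriene hydroxylase, had 42.6 and 52.7 (1.24-fold higher), although it is the immediate neighbour of Cyp4f13. Cyp4f18, the leukotriene hydroxylase of neutrophils and encoded on another chromosome, had 80.8 and 123 (1.52-fold higher). All 5 measured 4f genes were positive as deposited, after quantile normalization and with equal medians, where 56.2% of all compared genes were positive as deposited. The differences of Cyp4f14 (0.31) and Cyp4f18 (0.61) were near or below the SD of 0.51 between probe sets of dim genes. The 4f genes are related in sequence, so their probe sets may not be independent measurements.

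Of 7 measured neutrophil markers 2 were higher by 2-fold or more and none lower, with summed signals of 1885 and 4956, and none was under the floor on both arrays. Over all compared genes 5.82% were higher and 3.04% lower by as much. Of the 7, 2 passed the floor through the EiPS pool alone, which fixes their direction. Most of the difference between the sums lay in Ltf, lactoferrin, which secretory epithelia also make, with 1434 and 3901. S100a9, a calcium-binding protein of neutrophils, had 55.2 and 331. Elane, neutrophil elastase, had 45.3 and 29.2. The part of these markers in the 4f values was not tested. No other measured family 4 gene was past 2-fold by its brightest probe set. Cyp4b1, an enzyme of lung and skin, had 152 and 144. Cyp4v3, whose human counterpart is mutated in a crystalline retinal dystrophy, had 158 and 200.1 by a shared probe set and 30.2 and 69.8 by another, log2 differences of 0.34 and 1.21. Cyp4a14 and Cyp4a31, fatty acid hydroxylases induced through the receptor Ppara, were under the floor on both arrays.

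**Figure D3:**
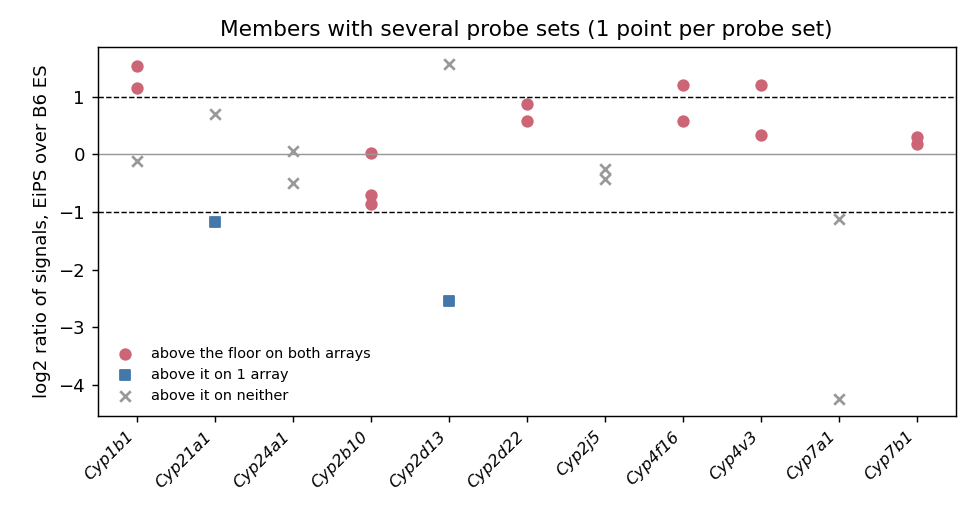
Log2 ratio of signals (EiPS over B6 ES) for each probe set of the 11 members that have several, with circles above the floor on both arrays, squares on 1 and crosses on neither. Both measurable probe sets of Cyp1b1 lie above 1, whereas those of Cyp2b10 run from 0.02 to -0.87 and those of Cyp4v3 from 0.34 to 1.21.

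The 4 members of steroid hormone synthesis gave little signal in either pool. Cyp11b1 and Cyp19a1, also of this pathway, were not among the members. Cyp11a1, which cuts the side chain of cholesterol in the first step, was under the floor on both arrays (1.47 and 14.8), as were Cyp17a1 (14.2 and 5.08) and the aldosterone synthase Cyp11b2 (23.4 and 12.0). Cyp21a1, the hydroxylase lost in congenital adrenal hyperplasia, had 49.0 in the ES pool but 21.9 in the EiPS pool, so it was lower by at least 1.91-fold. Its second probe set was under the floor on both arrays, with 15.2 and 24.5, and the mean over both gave a log2 difference of -0.09. Markers of steroid-producing cells were low as well. Star, the only one above the floor on both arrays, had 68.9 and 62.4 (1.10-fold lower). Nr5a1 (39.0 and 6.69) and Amh (25.8 and 3.75) passed it in the ES pool alone, Amh barely. Hsd3b1 was under the floor on both arrays. The summed signal of 137 and 74.3 over these 4 genes thus includes signals too low to measure and shows no direction.

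No measured gene of sterol and bile acid metabolism was past 2-fold, 4 of them being above the floor on both arrays and Cyp8b1 on 1. Cyp7b1, which hydroxylates oxysterols, had 431 and 532 (1.24-fold higher), and its second probe set 329 and 373. Cyp27a1, the mitochondrial sterol hydroxylase, had 117 and 179 (1.53-fold higher), and the oxysterol hydroxylase Cyp39a1 had 126 and 151. Cyp46a1, the neuronal enzyme that clears cholesterol from the brain, had 315 and 347 (1.10-fold higher). Markers of neurons stood the other way, with 3 of 6 lower by 2-fold or more in the EiPS pool, none higher, and summed signals of 17492 and 7548. The 3 became 4 after quantile normalization and 5 with equal medians. As deposited, 3.04% of all compared genes were lower by as much. Cyp8b1, which sets the share of cholic acid among bile acids, had 29.9 in the ES pool but 5.36 in the EiPS pool, a bound of 1.17-fold lower. Cyp7a1, the rate-limiting enzyme of bile acid synthesis in liver, was under the floor on both arrays (17.5 and 0.926). So neither of these liver genes was above the floor in the EiPS pool. In that pool 6 of 10 measured hepatocyte markers were higher by 2-fold or more.

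Of the vitamin D and retinoid enzymes, Cyp26a1, which degrades retinoic acid, had 70.2 and 99.4 (1.42-fold higher). Cyp24a1 (22.0 and 22.8) and Cyp27b1 (3.91 and 8.24), which break down and make the vitamin D hormone, were under the floor on both arrays. Cyp26b1, Cyp26c1 and Cyp2r1, of the same pathways, were not among the members.

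The 26 members under the floor on both arrays had signals from 0.867 to 24.9 in the ES pool and from 0.206 to 23.8 in the EiPS pool, with medians of 11.9 and 5.30. Among them 12 were nominally higher in the EiPS pool. Those signals are in the range of silent receptors and show no direction.

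Genes that work with P450 enzymes were taken from lists written for these data. The measured redox partners were close between the pools: none of 7 was past 2-fold, and the median was -0.10. The largest differences were 0.33 for Pgrmc2 and -0.28 for Pgrmc1, haem-binding partners of P450 enzymes. Por, the P450 reductase, and Fdxr, the ferredoxin reductase, had no probe set of their own and were not measured. Cyb5a, the microsomal cytochrome b5, had 2396 and 2237. Of 18 regulators, 2 were higher by 2-fold or more and none lower, with a median of 0.33. Hnf4a, a master regulator of liver and gut genes, had 94.1 and 221 (2.35-fold higher), and Vdr, the vitamin D receptor, 35.2 and 99.5 (2.82-fold higher). The xenobiotic receptors Nr1i2 (23.2 and 37.5) and Nr1i3 (5.72 and 40.6) passed the floor with EiPS tumours alone, with bounds of 1.46-fold and 1.58-fold higher. The aryl hydrocarbon receptor Ahr had 291 and 395 (1.36-fold higher). In all 15 of 18 regulators were positive as deposited, where 56.2% of all compared genes were. The 15 became 13 after quantile normalization and with equal medians. Of the 15, 3 passed the floor through the EiPS pool alone, namely Nr1i2, Nr1i3 and Ahrr (1.41 and 31.7). Nr5a1, a negative one, passed it through the ES pool alone (39.0 and 6.69). The direction of these genes is fixed by that.

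Of 12 genes in the retinoic acid list, 2 were higher by 2-fold or more and none lower (median 0.31). Crabp1, a retinoic acid binding protein, had 83.0 and 367 (4.43-fold higher), and Rbp4, the plasma retinol carrier, 134 and 269 (just over 2-fold, and inside it after either scaling to the same distribution or median). Among partners in steroid and bile acid synthesis, 1 of 11 was past 2-fold: Ch25h, a cholesterol hydroxylase of activated macrophages, had 68.7 and 152 (2.21-fold higher; inside 2-fold after quantile normalization). Among 9 eicosanoid enzymes, Ptgs2, the inducible cyclooxygenase, had 40.3 and 95.6 (2.37-fold higher) and Alox15, a lipoxygenase, 168 and 77.9 (2.15-fold lower). Counts of 2 of 18, 2 of 12, 1 of 11 and 1 of 9 higher stand against the 5.82% of all genes, and lists this short give no more than a description.

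**Figure D4:**
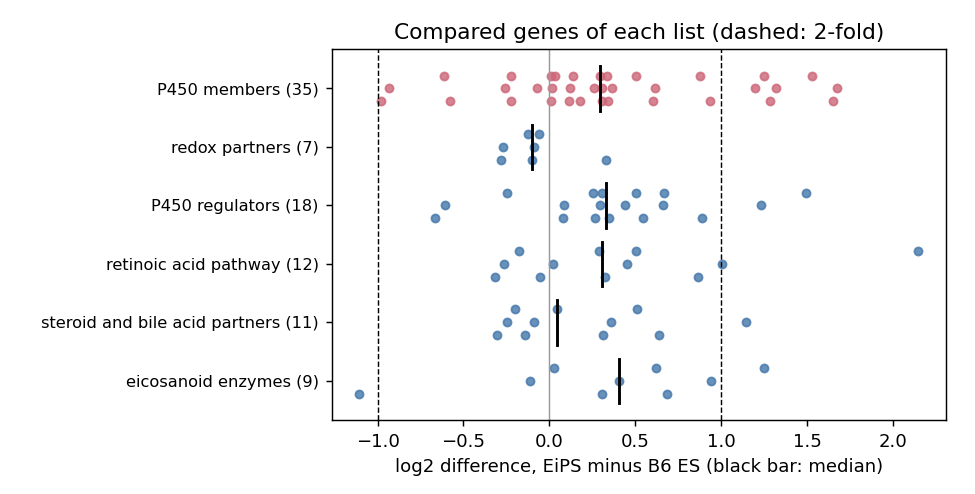
Log2 difference (EiPS minus B6 ES) of each compared gene among the P450 members and 5 lists of genes that work with them, with the number compared in brackets, black bars at medians and dashed lines at 2-fold. The redox partners lie close to 0 (median -0.10), and the P450 members spread from -0.98 to 1.67.

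**Figure D5:**
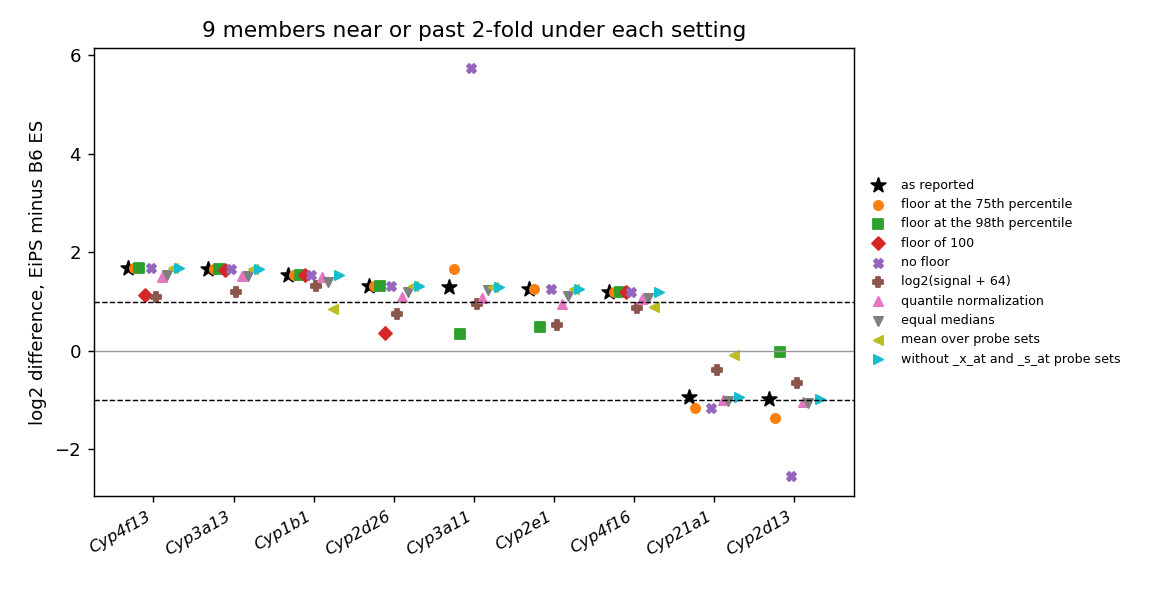
Log2 difference (EiPS minus B6 ES) of 9 members near or past 2-fold as reported (stars) and under each alternative setting, with dashed lines at 2-fold. Cyp4f13 and Cyp3a13 stay above 1 in all settings shown, Cyp3a11 runs from 0.33 to 5.74 with the choice of floor, and Cyp2d13 passes 2-fold in some settings only.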

How the data were processed

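Per the labels' protocols, 5 µg of total RNA per array was turned into cRNA labelled with biotin and hybridised to an Affymetrix mouse array. The deposited values are intensity values per probe set on a linear scale, which the authors computed with Affymetrix Expression Console (MAS5), per the submitters' processing notes. Their versions are not given in these sources. MAS5 subtracts mismatch signal, so low signals are noisy, and its scaling gives relative amounts. Precision is limited by the 1 array per group.

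The table lists 22690 probe sets: 20380 with 1 gene symbol, 691 with several, 1555 with none, and 64 controls. Symbols were updated by Entrez identifier with RefSeq (GRCm38.p6) for 20351, and 29 kept the annotation's symbol. Genes with several probe sets were given by the brightest, judged on log2 signals averaged over both arrays. Genes under the floor on both arrays (1420 of 12393) were not compared. No test, p-value or SE was computed. The procedure was tested on simulated data, with changes put only into genes well above the floor and larger than the differences reported for members. That test does not show how well smaller differences, or those near the floor, are recovered. Promoter windows were matched by symbol for 45 of the 61 members and aligned globally with Biopython 1.88 (match 1, mismatch -1, gap opening -2, extension -0.5). Motifs were chosen with the sequences in view.

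The members, lists, floor and named genes were chosen with earlier results of these data known. Every member is named. Of each pathway list, members past 2-fold are named, or the 2 with the largest difference. Genes named besides these were chosen after their values were seen. From the pathway lists they are Cyb5a, Nr1i2, Nr1i3, Ahr, Ahrr and Nr5a1. The markers of liver, gut and airway are Ttr, Ahsg, Fga, Fgb, Serpina1b, Tat, Cdx1, Scgb1a1, Scgb3a1, Scgb3a2, Aldh1a1 and Foxj1. The other markers are Ltf, S100a9, Elane, Star, Amh, Hsd3b1, Umod, Aqp2 and Slc12a1. As alternatives, the floor was moved to the 75th percentile of the receptors, to the 98th or to 100, or dropped. Others were log2(signal + 64), equal array medians, quantile normalization, the mean over probe sets, and leaving out probe sets whose name marks them as shared. A threshold of 1.5-fold, members above the floor on both arrays alone, and the split at a signal of 100 were added after the data were seen. Computation used Python 3.11.15 and pandas 2.3.3.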

Additional observations from a re-analysis of the deposited data

How the results depend on the processing

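The 7 members higher by 2-fold or more were also 7 with the lower floor (75th percentile of the receptors) and with equal medians, 6 after quantile normalization, 5 with the floor at the 98th percentile, 5 with probe sets averaged and 8 without shared probe sets, where Cyp4v3 joined them. They were 4 with a floor of 100, 3 with log2(signal + 64), 16 with no floor and 11 at a threshold of 1.5-fold. Of all genes 15.3% were at least 1.5-fold higher and 9.32% lower. Members lower by 2-fold or more numbered 2 with the floor at the 75th percentile, 1 after quantile normalization, 2 with equal medians, 11 with no floor and 3 at 1.5-fold. With no floor, the 26 members under the floor on both arrays enter the counts. The count of higher genes in all, 639, was 246 with log2(signal + 64), 1249 without a floor and 305 at a floor of 100, and that of lower genes, 334, was 187, 720 and 244. The steroid hormone value, which is that of Cyp21a1, was -0.40 with log2(signal + 64) and -0.087 with probe sets averaged. The median of 0.30 over members was 0.10 after quantile normalization, 0.18 with equal medians and 0.31 over the 25 members above the floor on both arrays. Of 282 differences of single members under the 9 alternatives, 258 moved by less than the SD between probe sets (0.40) and 24 by more, and no member past 2-fold changed direction. Part of the 258 could not move, since a changed floor leaves a member above it untouched. Choices among probe sets likewise leave a member with 1 unshared probe set untouched. Cyp4f13 and Cyp3a13 were past 2-fold in 9 of 9 alternatives, Cyp1b1 in 8 of 9, Cyp2d26 and Cyp4f16 in 7 of 9, Cyp3a11 in 6 of 8 and Cyp2e1 in 5 of 8. For Cyp4f13 and Cyp3a13, the percentile floors, no floor and the probe set choices gave the value as reported, and could not do otherwise. No array could be left out, and no paired analysis was possible because each group has 1 array.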

Other observations

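P450 enzymes that carry other names or share a probe set were outside the symbol rule. Cyp51, the sterol demethylase of cholesterol synthesis, had signals of 686 in the ES pool and 503 in the EiPS pool. Its other probe sets were lower in the EiPS pool too (343 and 260.4, 46.7 and 24.7). Ptgis, the prostacyclin synthase of vessel walls, had 404 and 325, and Tbxas1, the thromboxane synthase of platelets and macrophages, 114 and 115. A probe set shared by Cyp2a5 and Cyp2a4, hydroxylases of coumarin and testosterone, had 552 and 439 (1.26-fold lower), while Cyp2a12, the member of the same subfamily with a probe set of its own, was under the floor on both arrays. The probe sets of Cyp4a12a, of Cyp4a10 with Cyp4a31, and of Cyp3a41a with Cyp3a41b were under the floor on both arrays, with signals from 0.390 to 15.5.

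Markers of the remaining tissues were counted in the same way. Higher by 2-fold or more in the EiPS pool were 3 of 6 yolk sac endoderm markers, 4 of 5 alveolar type 2 markers, 3 of 7 keratinocyte markers, 1 of 6 sebaceous gland markers, 1 of 6 macrophage markers, 1 of 6 endothelial markers and 4 of 6 adipocyte markers. After quantile normalization the yolk sac count was 1 of 6 and the endothelial count 0. With equal medians the yolk sac and keratinocyte counts were 2, the adipocyte count was 3, and the sebaceous gland, macrophage and endothelial counts were 0. Another adipocyte marker was lower by 2-fold or more. Passing the floor in the EiPS pool alone were 3 adipocyte markers and 1 each of alveolar type 2, yolk sac endoderm, sebaceous gland and kidney tubule. Another sebaceous gland marker passed it in the ES pool alone. This fixes the direction of each. Over all compared genes 5.82% were higher by 2-fold or more and 3.04% lower. Lower by that much were 3 of 4 markers each of skeletal and smooth muscle. None of 4 astrocyte markers and none of 2 measured kidney tubule markers was past 2-fold, and Umod, Aqp2 and Slc12a1 of the kidney list were under the floor on both arrays.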
